A study of Homo sapiens with 28 samples.

Results

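The genes described here are 53 mouse transcription factor genes that act in embryonic development: 7 PAX, 4 SOX, 5 FOX and 5 T-box genes, 11 other homeobox genes, the bHLH genes Olig2 and Neurog1, the zinc finger gene Wt1, 9 HoxC genes and 9 HoxD genes. They were given as a list of names, and all 53 were found among the 21887 protein-coding genes of the gene table. For each gene, the length of the gene interval plus 5 kb on either side (its window) that lay under peaks of a histone mark was measured in the bone marrow of 8 mice, with all coordinates in mm10. The marks were H3K27me3, the trimethylation of a histone H3 lysine at silenced genes, and H3K27ac, the acetylation of the same lysine at active promoters and enhancers. At least 200 bp of a window under peaks made a gene marked in that mouse. The series also holds human cell line libraries, which were not used here.

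All 8 mice had the floxed alleles Ezh2(fl/fl) and Runx1(fl/fl), so the controls carried them too. The 3 WT mice were Rag1(+/+) and Flt3(+/+) and had no Cre recombinase. The 5 DKOITD mice, DKOITD48, DKOITD52, DKOITD53e, DKOITD83 and DKOITD185, were Rag1(Cre/+) and Flt3(ITD/+), where ITD is an internal tandem duplication of the receptor gene. The strain was C57BL/6, and their ages are not given in the sources used here. The Cre is expressed from Rag1, a gene of lymphoid progenitors, so only cells with a history of Rag1 expression can have recombined, and whole marrow may hold other cells with intact Ezh2. Cells bearing Kit were enriched from WT marrow with CD117 beads, while total marrow was taken from DKOITD mice, so genotype and cell preparation cannot be told apart in any comparison. The series title names leukaemia of early thymic progenitors with mutated Ezh2 and Runx1 as its subject.

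EZH2 is the catalytic subunit of Polycomb repressive complex 2, which writes H3K27me3. The complex acts over CpG-rich promoters of developmental regulators, and the mark can spread from there into broad domains. PAX, SOX, FOX, T-box and homeobox factors set the identity of tissues such as the nervous system, somites, heart and gut, and most of those listed have no role in marrow. Hox genes lie in clusters whose order along the chromosome follows the order of their use along the body axis, and these clusters are textbook Polycomb targets.

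H3K27me3 libraries held 2766339 to 6411696 fragments, and 3 of them stood apart. H3K27me3 peaks covered 3.17 Mb of genome in DKOITD53e, 5.20 Mb in DKOITD48 and 5.24 Mb in DKOITD83, against 13.8 to 27.3 Mb in WT mice, 30.3 Mb in DKOITD52 and 40.5 Mb in DKOITD185. DKOITD53e and DKOITD83 held more fragments, 5492339 and 5280478, than any WT library, whose highest was 3994483. The share of fragments in peaks was 3.71% to 7.24% in these 3 mice and 10.9% to 26.8% in the other 5. The marrow label was checked by H3K27ac over markers: of 10 haematopoietic markers, 6 to 9 were marked in WT mice and 5 to 7 in DKOITD mice. All 6 granulocyte markers were marked in each WT mouse, whereas 0, 4, 0, 0 and 2 were marked in DKOITD48, DKOITD52, DKOITD53e, DKOITD83 and DKOITD185, with summed lengths of 23.6 to 36.8 kb in WT and 0 to 6.52 kb in DKOITD mice. Of 8 erythroid markers 4 or 5 were marked in WT and 3 in each DKOITD mouse, with Gata1, Hba-a1 and Slc4a1 unmarked in all 8. Of 6 B lineage markers 3 to 6 were marked in WT and 2 or 3 in DKOITD mice. Of 6 T lineage markers 3 were marked in WT and 2 or 3 in DKOITD mice. Of 10 stroma and vessel markers 2 were marked in each WT mouse and 1 to 3 in DKOITD mice, with Col1a2, Cxcl12, Lepr, Pdgfrb, Emcn and Tek at 0 everywhere. The part of cell composition in the results below was not tested, and in bulk chromatin, fewer cells with the mark and less of it per cell cannot be told apart.

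Nearly all of the developmental genes carried H3K27me3 in every mouse. All 53 were marked in each WT mouse, in DKOITD52 and in DKOITD185, and 52 were marked in each of DKOITD53e, DKOITD83 and DKOITD48. The exceptions were Pax3, at 0 in DKOITD48, and Sox9, at 0 in DKOITD53e and DKOITD83. Thus 51 of 53 were marked in all 8 mice, while of the 4378 genes marked in the 3 WT mice 29.7% were. Loss in the strict sense, marked in all WT and no DKOITD mouse, was seen for 0 of 53 genes, against a background of 2.56%. The share of the 4378 genes that were under 200 bp was 54.9% in DKOITD48, 3.52% in DKOITD52, 67.2% in DKOITD53e, 47.8% in DKOITD83 and 5.53% in DKOITD185. Under stricter peak lists fewer of the 53 were marked in all mice, 33 with equal peak numbers and 0 with a −log10 q of at least 5, as WT peaks too were left out. At that q limit WT2 had 0 kb over the 53 genes, which fixed the 0 in advance.

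The 53 genes had long domains in WT mice. The shortest WT value among the 53 genes was 4023 bp, at Sox9 in WT2, and 914 protein-coding genes had at least this much in each WT mouse, a set defined after the values were seen. Of these, 78.1% were marked in all 8 mice and 0.109% in no DKOITD mouse, and 11.2% were under 200 bp in DKOITD48, 18.3% in DKOITD53e, 5.03% in DKOITD83, 0.219% in DKOITD52 and 0.109% in DKOITD185. The covered length showed the same order. Its median was 66.1% of the WT mean over the 53 genes in DKOITD48, 45.4% in DKOITD53e and 62.0% in DKOITD83, compared with 30.5%, 17.3% and 32.9% over the 914 genes and 0%, 0% and 7.94% over the 4378. In DKOITD52 and DKOITD185 the medians were 109.8% and 112.5% for the 53 genes, 121% and 132% for the 914, and 124% and 137% for the 4378. The median percent of the window under peaks was 87.1, 72.7 and 84.0 in WT1 to WT3, 51.7, 35.8 and 46.6 in DKOITD48, DKOITD53e and DKOITD83, and 91.8 and 95.5 in DKOITD52 and DKOITD185. Windows covered end to end numbered 19, 3 and 10 in WT1 to WT3, 21 in DKOITD52, 25 in DKOITD185 and 0 in each of the other 3 mice. The covered length cannot exceed the window, which limits how far a gene can rise above WT. The closeness of the medians of the 53 genes to 100% in DKOITD52 and DKOITD185 is therefore no measure of stability. In DKOITD48, DKOITD53e and DKOITD83 the medians of the 53 genes were above those of both sets, of which no test was made. Losses beyond a window do not count in this measure. The 914 genes share only the lower limit of 4023 bp, whereas the median of the 53 genes was 13.0 to 14.2 kb in WT mice. The part of either in the higher medians was not tested.

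**Figure D1:**
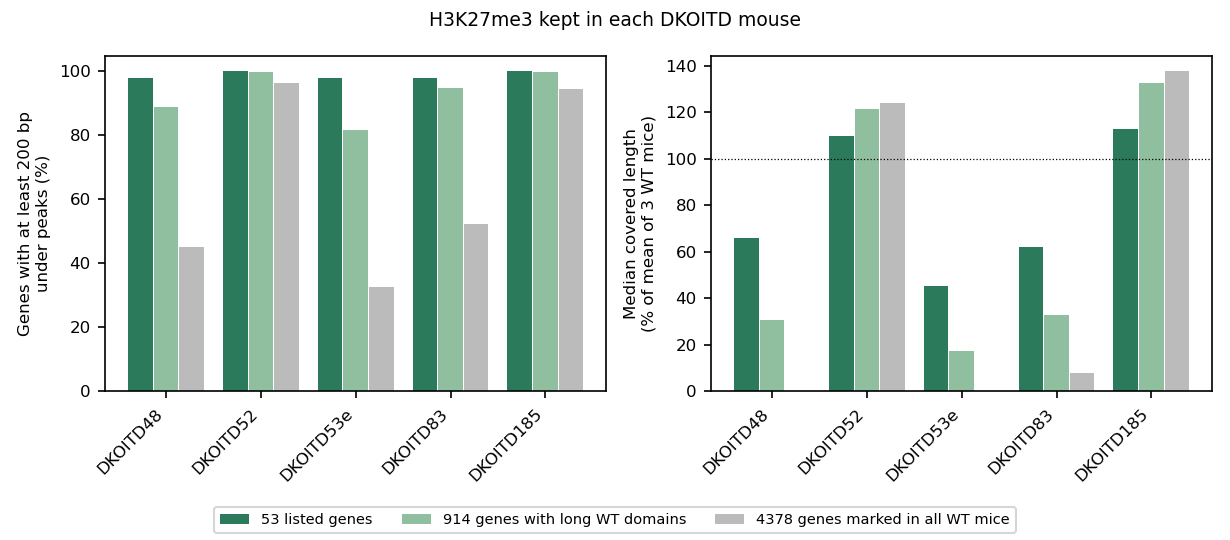
Left, percent of genes with at least 200 bp of H3K27me3 in each DKOITD mouse; right, median covered length as a percent of the mean of 3 WT mice (dotted line at 100). Dark green bars are the 53 developmental genes, light green the 914 genes with long WT domains and grey the 4378 genes marked in the 3 WT mice. The dark bars stand highest in DKOITD48, DKOITD53e and DKOITD83 in both panels, and the grey medians are 0 in DKOITD48 and DKOITD53e.

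The mark was held, but over less length, in the same 3 mice. Covered length lay below the lowest WT mouse at 49 of 53 genes in DKOITD48, 52 in DKOITD53e and 50 in DKOITD83, and the backgrounds over the 4378 genes were as high, at 95.1%, 98.9% and 96.0%. With equal peak numbers, the strongest 1891 of each library, these counts were 19, 26 and 19, and with a −log10 q of at least 5 they were 0. That 0 was fixed in advance, since at this limit WT2 had 0 kb over the 53 genes and no mouse could lie below it. Above the highest WT mouse there were 0 genes in these 3 mice (backgrounds 0.388%, 0.0228% and 0.137%). In DKOITD52 and DKOITD185 it was below at 0 genes (backgrounds 10.4% and 13.8%) and above at 22 and 25 genes (48.1% and 55.8%). Without WT1, the WT mouse with the largest territory, the counts above were 39 in both. At 47 genes exactly DKOITD48, DKOITD53e and DKOITD83 lay below the WT range, for which the background was 75.6% of the 4378 and 86.2% of the 914 genes, and no gene had all 5 DKOITD mice below it (6.65% of the 4378 and 1.64% of the 914). The 6 other genes were Foxd3, Nkx2-5, Lhx2 and Hoxc11, each below in 2 DKOITD mice, and Gsc and Hoxd9, each below in 1.

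**Figure D2:**
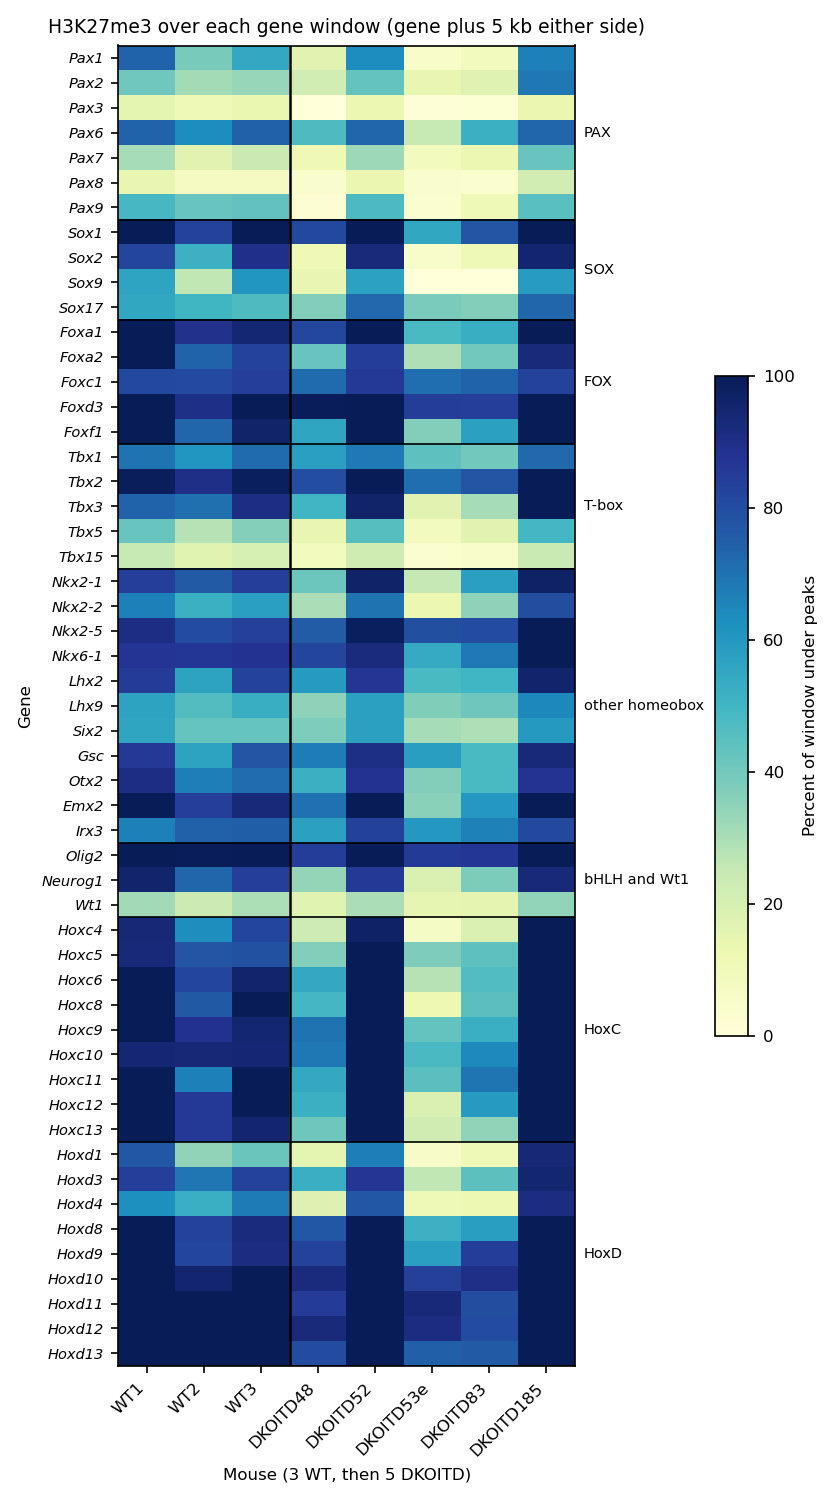
Percent of each gene window under H3K27me3 peaks (colour scale, 0 to 100) for the 53 genes (rows, by family) in 3 WT and 5 DKOITD mice (columns). DKOITD48, DKOITD53e and DKOITD83 are paler than the other 5 columns at most genes, while Foxd3, Olig2 and Hoxd10 to Hoxd13 stay dark in every column.

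Compared as groups, 3 WT against 5 DKOITD mice, the genes showed no called difference. limma on log2(covered kb + 0.5), fitted over 5695 genes with Benjamini-Hochberg adjustment, called 0 of 53 genes and 0.0% of all genes in either direction. At an unadjusted p under 0.05, it listed Pax3 and Pax9 as lower, where 6.62% of all genes were lower and 0.176% higher. That count of 2 was 15 without DKOITD185, 9 without DKOITD52, 4 without WT2, 1 without WT1 and 0 without any of DKOITD48, DKOITD53e or DKOITD83. The log2 difference was below 0 at 52 of 53 genes (88.2% of all genes), Nkx2-5 at 0.02 being the other, and its median was -0.40, or -0.21 without DKOITD53e, against -0.84 over all genes. This direction depended on scaling. Centred on genes marked in all mice, 16 genes were below and 37 above 0, with a median of 0.23 against -0.21 over all genes, and with equal peak numbers 29 were below and 23 above, with a median of -0.043 against -0.31. Exact two-sided permutation tests of covered kb over 56 assignments, where 0.0357 is the smallest possible p, gave 0.143 to 0.929 over the 53 genes. It also depended on which DKOITD mice entered: with DKOITD52 and DKOITD185 as the only DKOITD mice the median log2 difference was 0.17, above 0 at 49 of 53 genes. With peaks restricted to a −log10 q of at least 5 the median was 2.80 over the 35 of the 53 genes that could be tested, against 0.42 over all 947 genes tested. Of these 35 genes, 19 were at 0 in all 3 WT mice and passed the filter through DKOITD mice only. Their direction was fixed in advance, so the 2.80 is no measure of a turn in direction. All 35 differences were above 0, as were 77.8% of those of the 947 genes. At that limit 2, 0 and 17 of the 53 genes were marked in WT1 to WT3 and 33, 48, 18, 18 and 48 in DKOITD48, DKOITD52, DKOITD53e, DKOITD83 and DKOITD185.

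Of the settings run, this strict threshold was the one at which limma called any of the genes, Lhx2, a LIM homeobox factor of forebrain and eye, and Foxd3, a factor of neural crest and pluripotent cells. It called 6 of the 947 genes higher in DKOITD mice (0.634%) and 0 lower. Both had no strict peak in any WT mouse and so passed the filter of 3 marked mice through DKOITD mice, which fixed their direction. The calls are therefore given as a description, with no size or p. Of the 35 genes tested, 19 were at 0 in all 3 WT mice, as were 14.7% of the 947. At Lhx2 (mm10 chromosome 2, 38339271 to 38369737) the strict peaks covered 0 kb in each WT mouse and 23.7, 29.0, 19.2, 18.8 and 37.3 kb in DKOITD48, DKOITD52, DKOITD53e, DKOITD83 and DKOITD185. At Foxd3 they covered 0 kb in each WT mouse and 12.3, 12.4, 9.05, 9.77 and 12.4 kb in the same DKOITD mice. All 5 DKOITD mice lay above every WT mouse at these and 3 more of the 35 genes, and at 2.22% of the 947. Genes at 0 in all 3 WT mice enter this test only through DKOITD mice. Their share differed between the 35 and the 947 genes, so these counts cannot be compared. With all peaks WT mice covered 22.9 to 34.5 kb of the Lhx2 window and 11.1 to 12.4 kb of that of Foxd3. The strongest peak at Lhx2 had a −log10 q of 4.48, 3.41 and 4.60 in WT1 to WT3 and of 6.26 to 8.80 in DKOITD mice. The q-values are the authors' and depend on depth and on the input, which was another one for each genotype, and the part of either was not tested.

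Among PAX genes, which encode paired-domain factors of neural tube, somite, eye and thyroid, the median share of the window under H3K27me3 was the lowest of the 8 groups in every mouse. This share depends on window length. Pax2, Pax3, Pax7 and Pax8 have windows of 65.0 to 106.5 kb, against a median of 17.2 kb over the 53 genes, so a low share is not a short covered length. In what follows, mice are given in the order WT1, WT2, WT3, then DKOITD48, DKOITD52, DKOITD53e, DKOITD83 and DKOITD185, and lengths are kb of H3K27me3 in the window. Pax3 (chromosome 1, 78101267 to 78197136), needed for neural crest and muscle precursors, had 16.5, 11.4 and 14.2 kb in WT and 0, 13.5, 1.05, 1.86 and 14.0 kb in DKOITD mice. Its means were 14.1 ± 2.54 kb (SD, n = 3) and 6.07 ± 7.02 kb (SD, n = 5), and its log2 difference was the largest of the 53 at -2.14 (SE 0.952, limma adjusted p = 0.606, exact permutation p = 0.143). Both DKOITD52 and DKOITD185 lay inside the WT range, so the groups overlapped. In DKOITD48 the Pax3 region was not bare: a peak lay 114.6 to 116.5 kb from the lower end of the gene, which is 95.9 kb long, and so outside the window. All 8 mice had peaks at that place.

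Pax9 (chromosome 12, 56691693 to 56712824), a factor of pharyngeal pouches and teeth, had 15.1, 13.0 and 13.4 kb in WT and 0.615, 14.7, 0.985, 3.30 and 14.1 kb in DKOITD mice. Pax1 (chromosome 2, 147361930 to 147375049), its close relative in vertebral precursors, had 17.0, 8.97 and 12.6 kb, then 3.74, 14.7, 1.10, 1.93 and 15.4 kb. At both genes DKOITD48, DKOITD53e and DKOITD83 lay far under the lowest WT mouse and the other 2 DKOITD mice lay within the WT range. Pax6 (chromosome 2, 105668896 to 105698410), a regulator of eye and forebrain and the PAX gene with the highest median share of its window covered over the 8 mice, had 29.2, 25.1 and 29.2 kb, then 18.7, 28.8, 9.80, 20.4 and 28.8 kb. In DKOITD48, DKOITD53e and DKOITD83 it was at 67.1%, 35.3% and 73.4% of its WT mean. Pax2, Pax7 and Pax8 stood far over the WT mean in DKOITD185, at 196%, 178% and 219% of it, and of the other 50 genes only Hoxd1 came as high, at 184%. At most 40.4% of the windows of these 3 PAX genes was covered in a WT mouse, and up to 76.9% of that of Hoxd1. Pax3, at most 15.6% covered in WT, was at 99.4% of its WT mean in DKOITD185. A short window such as that of Sox1 was full in DKOITD185 at 106% of its WT mean. The part of window length in these values was not tested. Over the 4378 genes marked in the 3 WT mice the median in DKOITD185 was 137%. The Pax6 and Pax9 windows also hold sequence of the neighbours Elp4 and Slc25a21.

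**Figure D3:**
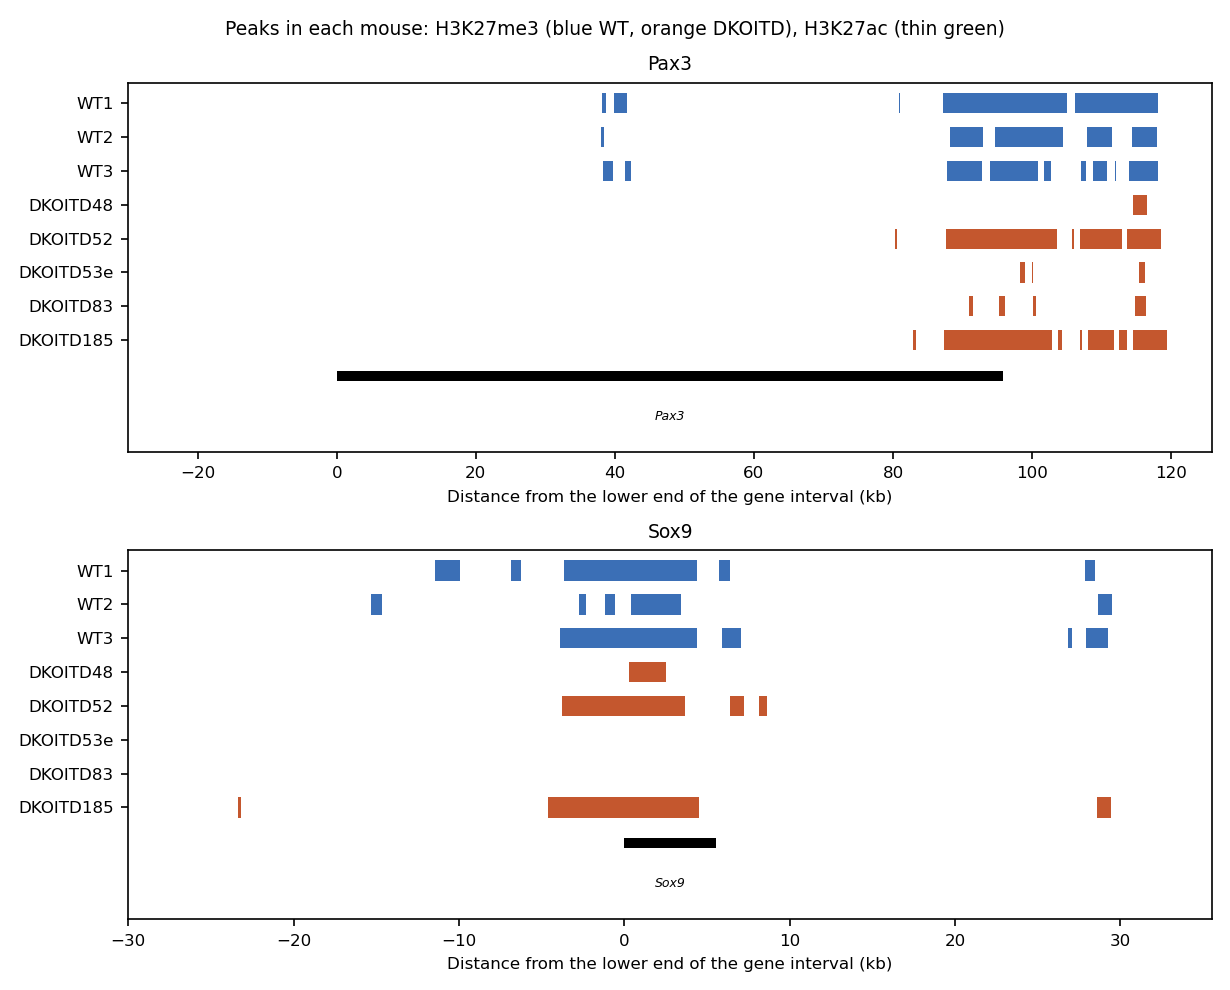
H3K27me3 peaks (blue WT, orange DKOITD) around Pax3 and Sox9 in each mouse, against distance in kb from the lower end of the gene interval (black bar); no H3K27ac peak lies in either plotted region. In DKOITD48 a single peak lies near Pax3, 114.6 to 116.5 kb from the lower end, and DKOITD53e and DKOITD83 have none at Sox9.

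SOX genes encode HMG-box factors. Sox9 (chromosome 11, 112782210 to 112787757), the regulator of cartilage and testis, had 8.70, 4.02 and 9.44 kb in WT and 2.23, 8.82, 0, 0 and 9.11 kb in DKOITD mice. It had the lowest WT2 value of all 53 genes, and the single peak left in DKOITD48 ranked at the 19.4th percentile of that library by q. Sox2 (chromosome 3, 34649995 to 34652461), the pluripotency and neural progenitor factor, had 10.3, 6.39 and 11.1 kb, then 1.37, 11.5, 0.559, 1.32 and 11.9 kb. Sox1 (chromosome 8, 12395519 to 12399555), its neural relative, had 14.0, 11.7 and 14.0 kb, then 11.4, 14.0, 7.71, 10.9 and 14.0 kb. Thus Sox1 was at 58.3% or more of its WT mean in every DKOITD mouse, while Sox2 was at 14.8%, 6.04% and 14.3% in DKOITD48, DKOITD53e and DKOITD83. limma log2 differences were -1.71 (SE 1.05) at Sox9 and -1.44 (SE 0.858) at Sox2, with adjusted p = 0.606 at both, and turned to 0.34 and 0.36 without DKOITD48, DKOITD53e and DKOITD83. Sox17, an endoderm and endothelial factor, had 7.76 to 9.03 kb in WT and 6.08 to 12.0 kb in DKOITD mice.

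FOX genes encode forkhead factors. Over the 5 listed here the median percent of the WT mean was 86.2, 51.2 and 64.0 in DKOITD48, DKOITD53e and DKOITD83. Foxd3 (chromosome 4, 99656299 to 99658671) had 12.4, 11.1 and 12.4 kb in WT and 12.3, 12.4, 10.5, 10.4 and 12.4 kb in DKOITD mice, so that DKOITD48 lay within the WT range. Foxc1, a mesoderm and eye factor, was at 86.7% or more of its WT mean in all 5 DKOITD mice. Foxa2, the endoderm and floor plate factor, was the shortest of the 5 relative to WT, at 49.0%, 34.0% and 47.1% in DKOITD48, DKOITD53e and DKOITD83.

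T-box genes pattern heart and limb. Tbx2 (chromosome 11, 85832615 to 85841948), a repressor in the atrioventricular canal, had 19.1, 17.3 and 19.1 kb in WT and 15.5, 19.3, 13.7, 14.9 and 19.3 kb in DKOITD mice. Tbx15 (chromosome 3, 99240348 to 99354260), a factor of skin and skeleton, had 30.8, 20.8 and 24.8 kb, then 10.4, 28.0, 4.34, 5.46 and 30.0 kb, with a log2 difference of -1.07 (SE 0.531, limma adjusted p = 0.606) that turned to 0.99 with equal peak numbers. The 2 genes differ in window length, 19.3 kb at Tbx2 and 123.9 kb at Tbx15, and in the share of it covered. Tbx3 and Tbx5, which lie near each other on chromosome 5, were at 20.6% and 23.0% of their WT means in DKOITD53e.

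The remaining homeobox genes outside the Hox clusters held the mark at a median of 78.9%, 64.6% and 67.0% of the WT mean in DKOITD48, DKOITD53e and DKOITD83. Nkx2-5 (chromosome 17, 26838664 to 26844988), a cardiac regulator, was at 89.1% or more of its WT mean in each DKOITD mouse, the highest such minimum of the 53 genes. Emx2 (chromosome 19, 59458690 to 59465357), a factor of cortex and urogenital tract and the most covered of the group by the same median share, had 16.7, 14.0 and 15.4 kb in WT and 11.7, 16.7, 5.96, 10.0 and 16.7 kb in DKOITD mice. Nkx2-2, of ventral neural tube and pancreas, was the shortest of them relative to WT, at 21.8% in DKOITD53e. Olig2 (chromosome 16, 91225550 to 91228677), the oligodendrocyte bHLH factor, had 13.1, 13.0 and 13.1 kb in WT and 11.1, 13.1, 11.2, 11.4 and 13.1 kb in DKOITD mice, so at least 84.5% of its window was covered in each mouse. The neurogenic bHLH gene Neurog1 had 8.51 to 11.2 kb in WT and 3.96, 10.1, 2.2, 4.47 and 10.9 kb in DKOITD mice.

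**Figure D4:**
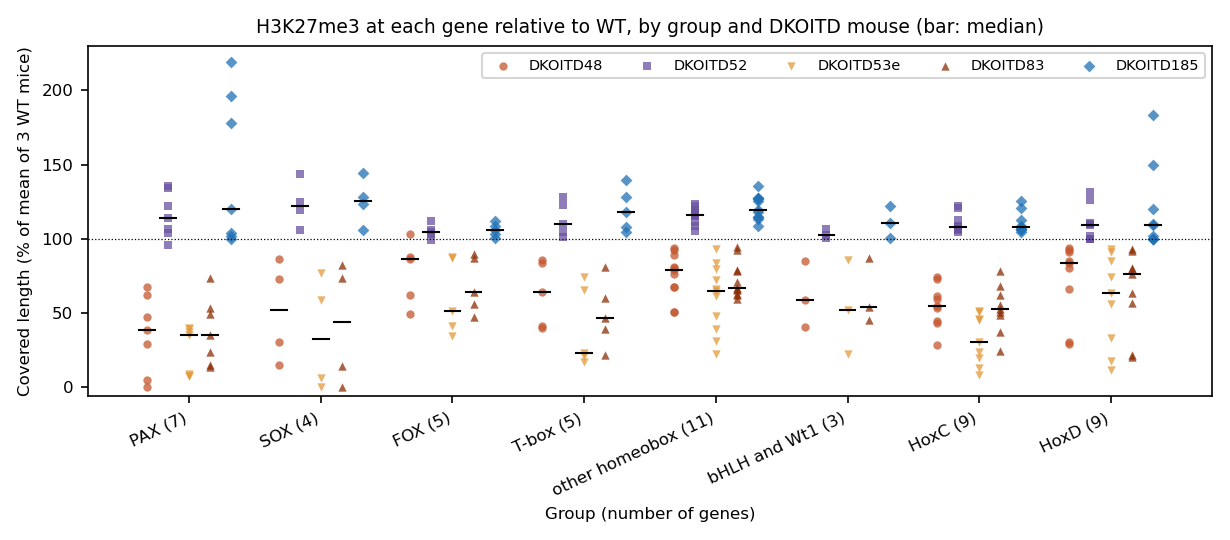
Covered length of H3K27me3 at each gene as a percent of the mean of 3 WT mice (dotted line at 100), by group of genes and DKOITD mouse; each point is a gene and each black bar a median. DKOITD52 and DKOITD185 lie near or above 100 in every group, and HoxC medians lie under HoxD medians in DKOITD48, DKOITD53e and DKOITD83.

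The HoxC and HoxD clusters differed in how they were covered. The HoxC cluster (chromosome 15, 102921131 to 103036856) was 97.6%, 78.2% and 94.8% under H3K27me3 in WT mice, 47.6%, 25.2% and 46.2% in DKOITD48, DKOITD53e and DKOITD83, and 100% in DKOITD52 and DKOITD185. A single peak of 132.7 kb in DKOITD52 and of 145.4 kb in DKOITD185 spanned it, each the longest H3K27me3 peak of its library, whereas 23, 18 and 26 separate peaks lay in the cluster in DKOITD48, DKOITD53e and DKOITD83. In WT1 to WT3 there were 4, 17 and 7 peaks. The HoxD cluster (chromosome 2, 74668225 to 74765142) was 90.3%, 75.8% and 85.0% covered in WT mice, 62.2%, 45.4% and 55.7% in DKOITD48, DKOITD53e and DKOITD83, and 89.8% and 97.4% in DKOITD52 and DKOITD185. No mouse had an H3K27ac peak inside either cluster.

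Within HoxD the part from Hoxd13 to Hoxd9 was covered the most. It was 100%, 96.8% and 100% under H3K27me3 in WT, 91.8%, 85.8% and 85.3% in DKOITD48, DKOITD53e and DKOITD83, and 100% in the other 2 DKOITD mice. From Hoxd8 to Hoxd1 the values were 84.5%, 65.0% and 77.7% in WT and 47.4%, 83.6%, 25.2%, 40.0% and 95.9% in DKOITD mice. Every mouse had the higher value in the Hoxd13 to Hoxd9 part. The peaks there were nevertheless shorter in the 3 low mice: the longest one reaching into it was 69.6, 49.3 and 55.7 kb in WT and 14.7, 14.1 and 14.9 kb in DKOITD48, DKOITD53e and DKOITD83, and it lay in 1, 2 and 1 pieces in WT and in 3, 4 and 4 in those mice. In HoxC the part from Hoxc13 to Hoxc9 was 98.6%, 81.9% and 97.3% covered in WT and 54.1%, 35.1% and 56.2% in DKOITD48, DKOITD53e and DKOITD83, and from Hoxc8 to Hoxc4 the values were 96.0%, 72.3% and 90.7%, then 39.8%, 15.0% and 35.6%. Both HoxC parts were 100% covered in DKOITD52 and DKOITD185. The gap between the 2 parts was thus smaller in HoxC than in HoxD in every mouse, WT and DKOITD alike.

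Single HoxC genes did not all follow these parts. Hoxc13, in the more covered part, had 40.6%, 22.2% and 34.5% of its window marked in DKOITD48, DKOITD53e and DKOITD83, and Hoxc6, in the less covered part, 54.7%, 27.9% and 46.6%. Hoxd12 (74675013 to 74677705), a limb and trunk end gene, had 12.7 kb in each WT mouse and 11.7, 12.7, 11.6, 10.17 and 12.7 kb in DKOITD mice. Hoxd4 (74721978 to 74729160), a hindbrain and neck gene, had 10.8, 8.97 and 11.7 kb, then 3.04, 13.2, 1.82, 2.09 and 15.7 kb. Hoxd1 (74762980 to 74765142), at the far end, had 9.36, 4.18 and 5.08 kb, then 1.88, 8.15, 0.700, 1.32 and 11.4 kb. Hoxd4 and Hoxd1 thus had the 3 low DKOITD mice under and DKOITD185 over all WT mice, and at Hoxd4 DKOITD52 was over them too. Hoxc10 (102966796 to 102971898), the HoxC gene with the highest median share of its window covered over the 8 mice, had 14.2, 14.2 and 14.2 kb in WT and 10.4, 15.1, 7.23, 9.68 and 15.1 kb in DKOITD mice. Hoxc13 (102921131 to 102928814), a gene of hair and nail, had 17.7, 15.2 and 16.9 kb, then 7.19, 17.7, 3.93, 6.11 and 17.7 kb. Hoxc4 (103018097 to 103036856) had 26.9, 18.2 and 23.7 kb, then 6.54, 27.9, 1.87, 5.47 and 28.8 kb, the largest Hox difference at a log2 of -1.26 (SE 0.654, limma adjusted p = 0.606, exact permutation p = 0.357). That difference turned to 1.04 with equal peak numbers, 1.81 with the q limit and 0.32 without DKOITD48, DKOITD53e and DKOITD83. Windows of neighbouring Hox genes overlap and share peaks, so these genes are not independent of each other.

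**Figure D5:**
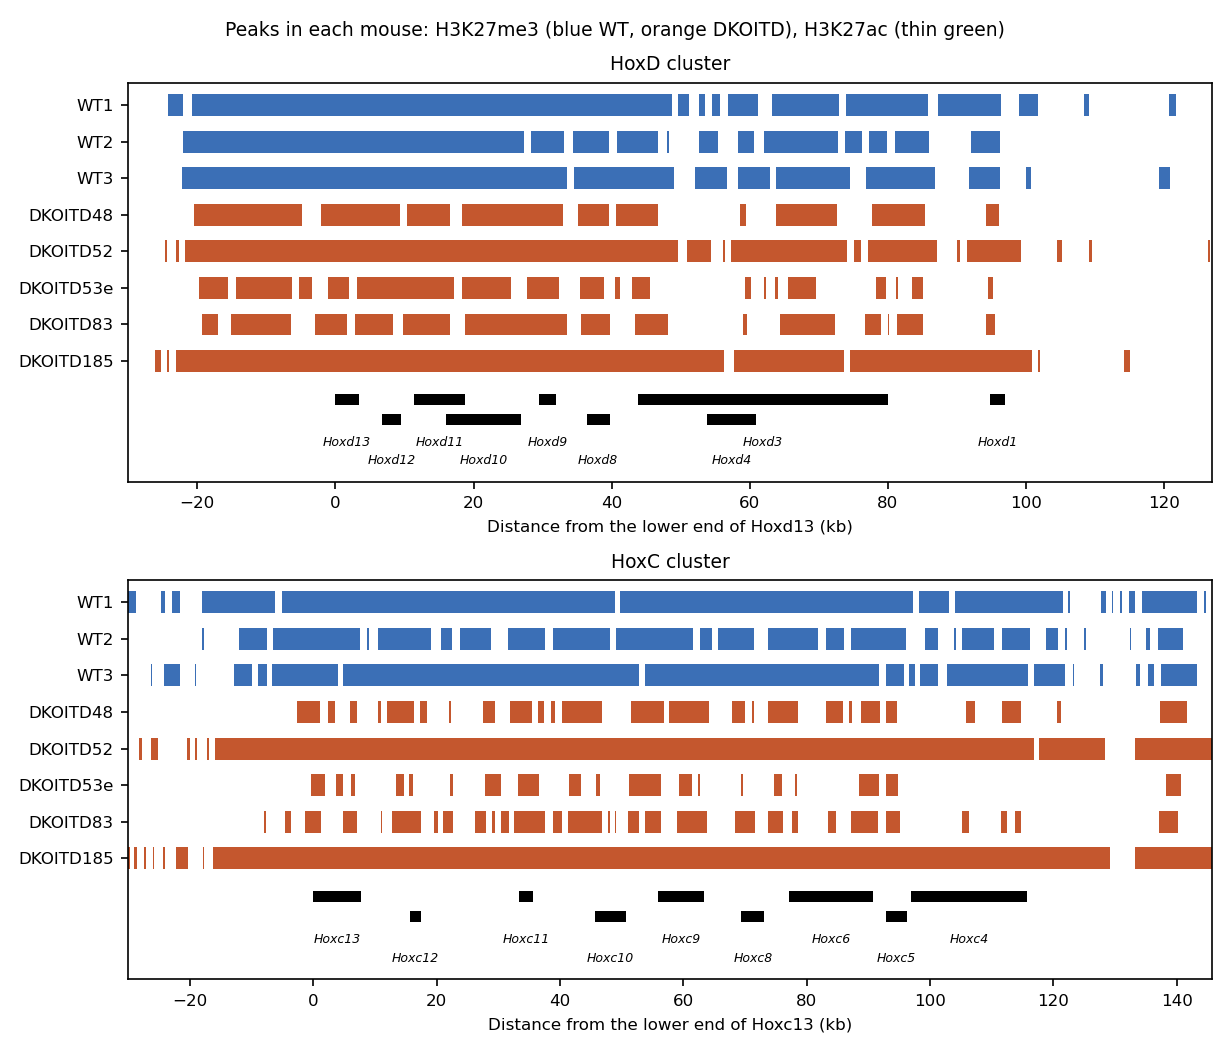
H3K27me3 peaks (blue WT, orange DKOITD) across the HoxD and HoxC clusters in each mouse, against distance in kb from the lower end of Hoxd13 or Hoxc13, with gene intervals as black bars; no H3K27ac peak lies in either cluster. In DKOITD48, DKOITD53e and DKOITD83 the peaks are broken up in HoxC, with 23, 18 and 26 of them, and coverage from Hoxd13 to Hoxd9 stays at 85.3% to 91.8%.

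What was left of the mark in DKOITD48, DKOITD53e and DKOITD83 lay mostly on bases that WT mice shared. The 53 windows join into 40 separate stretches of 1440.81 kb, of which 610 kb were under H3K27me3 in all 3 WT mice and 883.8 kb in any of them. DKOITD48, DKOITD53e and DKOITD83 had the mark on 70.8%, 50.8% and 66.2% of those bases, and DKOITD52 and DKOITD185 on 99.5% and 99.7%. Of what was marked in DKOITD48, DKOITD53e and DKOITD83, 93.0%, 94.8% and 93.7% lay on those bases, and 0.196%, 0.0776% and 0% lay where no WT mouse had the mark. DKOITD52 and DKOITD185 had 44.6 and 87.8 kb outside all WT peaks, which was 5.25% and 9.52% of their marked length. Bases marked in all 8 mice came to 271.8 kb, or 44.5% of the bases shared by WT mice.

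Of the 53 genes, 50 had such a core present in all 8 mice, with a median of 6.00 kb over the 50, and Pax3, Pax9 and Sox9 had none. At Pax9 each mouse was marked, but not over a base common to all. The longest unbroken core was 12.8 kb at Tbx2 (chromosome 11, 85828911 to 85841677), over most of the gene and part of the flank below it, and Lhx2 had 10.3 kb, Foxc1 9.86 kb and Olig2 9.56 kb. The core filled 76.8% of the window at Olig2, 76.6% at Hoxd11, 76.3% at Hoxd10 and 76.0% at Foxd3.

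Sorted by the lowest of the 5 DKOITD mice, 8 genes were at 75% of their WT mean or more: Nkx2-5, Foxd3, Foxc1, Hoxd10, Olig2, Hoxd12, Irx3 and Hoxd11. At the other end, 16 genes had a DKOITD mouse under 25%, among them Pax3, Sox9, Pax9, Sox2, Hoxc4, Pax1 and Hoxd1. The 8 genes had windows of 12.4 to 20.8 kb with a median of 97.5% covered in WT, and the 16 had windows of 11.7 to 123.9 kb with a median of 59.8%. Both limits were set after the values were seen, and the WT mean enters both quantities, so this is a description with no test.

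H3K27me3 peaks at these genes were long, and the strongest one at the median gene ranked high in its library. Of the 100 longest peaks of a library, 25 to 29 in WT and 17 to 23 in DKOITD mice touched a window, although such peaks were 0.446% to 5.87% of all peaks. A long peak also touches a window more easily than a short one. Of the 100 strongest by q, 0, 0 and 1 did in WT and 6, 0, 9, 9 and 3 in DKOITD48, DKOITD52, DKOITD53e, DKOITD83 and DKOITD185, where peaks touching a window were 4.13%, 0.689%, 5.87%, 3.88% and 0.446% of all. The strongest peak of the median gene stood at the 95.2th, 84.6th and 90.0th percentile of its library by q in WT1 to WT3, and at the 86.5th to 98.0th in DKOITD mice. These percentiles take the highest of all peaks in a window and were not computed for other genes, so they have no background. The median gene had a longest peak of 10.7 to 19.6 kb in WT, 4.40 to 8.08 kb in DKOITD48, DKOITD53e and DKOITD83, and 23.8 and 26.2 kb in DKOITD52 and DKOITD185. In DKOITD48, DKOITD53e and DKOITD83, where peaks covered the least of the genome, the genes took a larger share of that territory. It was 8.23% to 10.3%, against 3.06% to 4.71% in WT, 2.80% in DKOITD52 and 2.28% in DKOITD185. When each library was cut to its 1891 strongest peaks, the number in the library with the fewest peaks, 46, 45 and 43 genes were marked in WT1 to WT3 and 50, 45, 52, 51 and 48 in DKOITD48, DKOITD52, DKOITD53e, DKOITD83 and DKOITD185.

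H3K27ac was almost absent from the developmental genes, in WT and DKOITD mice alike. It was marked at 3 of 53 genes in any mouse, against 61.6% of all genes and 51.9% of the genes with H3K27me3 in all WT mice. Pax7, a satellite cell factor (chromosome 4, 139737059 to 139833530), had 0.749 kb in WT1. Pax8, a thyroid and kidney factor (chromosome 2, 24420551 to 24475599), had 0.235 kb in WT1 and 0.806 kb in WT2. Tbx1, a pharyngeal factor (chromosome 16, 18580979 to 18590671), had 0.233 kb in DKOITD48. The other mice were at 0 at each of these genes, and no base carried both marks in any mouse. Where H3K27me3 was missing, at Pax3 in DKOITD48 and at Sox9 in DKOITD53e and DKOITD83, H3K27ac was at 0 too. H3K27ac peaks covered the least of the genome in these same mice, so that 0 is only a lack of called peaks.

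No developmental gene had H3K27ac in enough mice (at least 3) to enter the limma test, which over 11940 other genes called 4.25% lower and 0.804% higher in DKOITD mice. The nearest H3K27ac peak lay a median of 124 to 186 kb from the gene, depending on the mouse, and 15.3 to 36.2 kb from the 4378 genes. Within 50 kb there was such a peak for 3 to 7 of the 53 genes (5.66% to 13.2%), and for 57.2% to 70.2% of the 4378 genes. No gene was marked by H3K27ac with the strict q threshold, with equal peak numbers and with a minimum of 1000 bp.

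Related genes outside the 53 give the setting. The HoxA cluster, parts of which are active in blood progenitors, had 11 of 11 genes with H3K27me3 in each WT mouse and 6, 10, 11, 7 and 10 in DKOITD48, DKOITD52, DKOITD53e, DKOITD83 and DKOITD185. Of the 11, 6 were marked in all 8 mice. From Hoxa9 to Hoxa13, all 4 genes were marked in all 8 mice. HoxB had 9 or 10 of 10 genes with H3K27me3 in every mouse and 9 in all 8. Of 25 genes of the same families that are expressed in blood cells, such as Pax5, Sox4 and Meis1, 4 to 10 had H3K27me3 and 19 to 24 had H3K27ac. Among them limma called Tal1, a regulator of blood stem cells, lower for H3K27ac. Of 22 Polycomb genes, 5 to 11 had H3K27me3 and 17 to 22 had H3K27ac, and Ezh2, Eed and Suz12, which form the core of the complex, were not marked by H3K27me3 in any mouse. For H3K27me3 limma called 0 of the 11 HoxA, 10 HoxB, 8 blood-expressed and 8 Polycomb genes it tested, with 3, 0, 1 and 0 of them at an unadjusted p under 0.05.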

How the data were processed

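Chromatin immunoprecipitation sequencing of H3K27me3 and H3K27ac was analysed in 16 libraries from 8 mice, 3 WT and 5 DKOITD, grouped by the genotype in the labels. Each mouse is labelled as a separate animal. Per the submitters' processing notes, Bowtie2 2.2.5 and MACS2 2.0.10 were used with build mm10. Per the file headers, broad peaks were called by the authors library by library, on paired fragments and at a q of 0.05, with the WT1 input for WT and the DKOITD48 input for DKOITD libraries. Per the labels, a Drosophila spike was not used, so the peaks carry no absolute level. Per the file headers, a peak has a pileup (its signal, a fragment coverage), the −log10 of its p-value and q-value, and a fold enrichment (a ratio to local background). These deposited values are the authors' own; peaks were ranked or filtered by them, nothing more.

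Peaks were merged and intersected with gene intervals plus 5 kb, from a RefSeq table of GRCm38.p6 that gives no strand. Gene sequences and the human libraries were not used here. limma 3.58.1 in R 4.3.3 was run on log2(kb + 0.5) for genes marked in at least 3 mice. The fit was checked on data simulated from H3K27ac values, with shifts larger than any main H3K27me3 difference at the listed genes. That check therefore gives no measure of power for them. Two-sided exact permutation tests used SciPy 1.17.1. Values in every mouse are given for genes unmarked by H3K27me3 or marked by H3K27ac in any mouse, the 10 largest limma differences and the gene of each group with the highest median share of its window covered over the 8 mice; other genes are named from counts, after their values were seen. Windows of 1 kb, a −log10 q of 5, equal peak numbers, other minimum lengths and pseudocounts, no filter, centring and leaving out mice were tried. The genes, lists and tests were chosen with earlier results of these data known. A narrow or weak peak can be missed at these depths, so 0 kb means no called peak.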

Additional observations from a re-analysis of the deposited data

How the results depend on the processing

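Genes marked in every mouse numbered 51 with all peaks, 0 with a −log10 q of at least 5 and 33 with equal peak numbers. Under these 2 settings the genes below the WT range were 0 and 19 of 53 in DKOITD48, 0 and 26 in DKOITD53e, and 0 and 19 in DKOITD83. With the q limit WT2 had 0 kb over the 53 genes, so each 0 at that limit was fixed in advance. Genes above the WT range were 18 and 4 in DKOITD48 and 7 and 2 in DKOITD83 under the same settings, and 9 in DKOITD53e, 43 in DKOITD52 and 42 in DKOITD185 with the q limit. Windows of 1 kb gave 14 above in DKOITD52. Leaving out each WT mouse in turn gave 0 to 3 below and 22 to 39 above in DKOITD52. In DKOITD185 it gave 0 to 2 below and 25 to 39 above. WT1 set the high counts above, and WT2 those below.

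H3K27ac was marked at 0 genes with the q limit, equal peak numbers or a minimum of 1000 bp, and at 2 to 3 with a mouse left out. The H3K27ac limma test holds none of the genes with its filter and calls 0 of 3 without it. limma called 2 of the genes higher for H3K27me3 with the q limit, where over all genes it called 6 higher and 0 lower of 947. It called 0 of them under every other setting run, including equal peak numbers (5 higher and 49 lower of 2256 genes) and centring (18 higher and 16 lower of 5695). The median log2 difference was 2.80 with the q limit, -0.043 with equal peak numbers, 0.23 when centred on genes marked in all mice and 0.17 without DKOITD48, DKOITD53e and DKOITD83, and stayed between -0.57 and -0.21 with 1 mouse left out. Of the 35 genes behind the 2.80, all were above 0, but 19 were at 0 in all 3 WT mice and could only be positive. With equal peak numbers the difference turned positive at Pax1 (0.18), Tbx15 (0.99), Hoxc4 (1.04), Hoxd1 (0.41) and Hoxd4 (0.76), and with the q limit at Hoxc4 (1.81), Hoxd1 (1.06) and Hoxd4 (1.65). Without the 3 mice it was positive at Pax1 (0.26), Pax9 (0.055), Sox2 (0.36), Sox9 (0.34), Tbx15 (0.20), Hoxc4 (0.32), Hoxc13 (0.092), Hoxd1 (0.67) and Hoxd4 (0.45). The cause of these changes was not tested.

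No paired analysis was possible because WT and DKOITD mice share no replicate numbers. Start-site windows were not run, since the gene table gives no strand. Peak calls limit short or weak marks: the q limit left 95 to 814 H3K27me3 peaks in WT and 184 to 2015 in DKOITD libraries.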
